A study of Homo sapiens with 6 samples.

Results

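Desmosomes are spot-like junctions that fasten neighbouring epithelial cells to each other. The described genes are the 9 desmosome genes DSG2, DSC2, DSC3, JUP, PKP2, PKP3, PKP4, DSP and PERP, chosen by symbol from a table of 30403 genes. All 9 had a row, and all 9 passed the filter on low counts, as did 16040 of the 30403 genes. The RNA came from HK-2 cells, an immortalised line of human proximal tubule epithelium. The cells were harvested 48 h after Lipofectamine transfection with a plasmid for a short hairpin RNA against PARP1 (shPARP1, 3 libraries) or for a control hairpin (shCtrl, 3 libraries). The labels name no other agent for either group and describe no selection of transfected cells. PARP1 is a nuclear enzyme that attaches poly(ADP-ribose) chains to proteins at DNA breaks and on chromatin.

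In a desmosome, cadherins of 2 kinds, desmogleins (DSG) and desmocollins (DSC), bind across the gap between cells. Armadillo proteins, plakoglobin (JUP) and the plakophilins (PKP), hold the cadherin tails, and the plakin desmoplakin (DSP) ties them to keratin filaments. Simple epithelia such as the kidney tubule are known to rely on DSG2 and DSC2, while DSC3 is best known from stratified epithelia such as skin.

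The desmosomal cadherin genes lie side by side on chromosome 18, and their promoters are shown first because the cadherins changed most. On GRCh38 with GENCODE 29, DSC3 (ENSG00000134762.16) spans 30990008 to 31042815 and DSC2 (ENSG00000134755.14) spans 31058840 to 31102522, both on the minus strand. DSG2 (ENSG00000046604.12) spans 31498043 to 31549008 on the plus strand. The interval with these 3 genes is 559 kb long, and 16.0 kb separate DSC3 from DSC2. Each sequence is the 250 bases before a RefSeq transcript start on GRCh38.p14, in the direction of the gene. Capitals mark CACCTG, read on either strand as CACCTG or CAGGTG, the letters that SNAI and ZEB repressors are known to bind. The windows are chr18:31497927-31498176 on the plus strand for DSG2, and chr18:31102422-31102671 (the first of 2 DSC2 starts) and chr18:31042743-31042992 on the minus strand.
DSG2: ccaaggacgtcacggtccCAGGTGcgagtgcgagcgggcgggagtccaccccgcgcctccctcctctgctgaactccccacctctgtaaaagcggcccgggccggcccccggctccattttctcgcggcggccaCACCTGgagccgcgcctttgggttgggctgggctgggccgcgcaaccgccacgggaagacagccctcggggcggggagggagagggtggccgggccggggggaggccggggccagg
DSC2: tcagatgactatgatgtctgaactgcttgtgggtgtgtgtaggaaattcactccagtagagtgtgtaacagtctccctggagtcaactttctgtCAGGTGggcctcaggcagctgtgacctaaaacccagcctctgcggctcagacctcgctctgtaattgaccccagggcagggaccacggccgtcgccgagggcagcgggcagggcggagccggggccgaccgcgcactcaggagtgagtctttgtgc
DSC3: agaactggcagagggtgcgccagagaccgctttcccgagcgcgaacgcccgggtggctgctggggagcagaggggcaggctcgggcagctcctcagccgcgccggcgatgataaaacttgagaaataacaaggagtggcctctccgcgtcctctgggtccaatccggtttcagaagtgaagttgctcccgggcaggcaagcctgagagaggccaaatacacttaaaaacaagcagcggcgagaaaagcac
DSG2 holds the letters at positions -232 and -116 from the start, DSC2 at position -156, and the DSC3 window has no match. The GENCODE start of each of these 3 genes lies inside its window, so the 2 annotations differ in where the transcript begins. RefSeq windows were matched for 7 of the 9 genes, 10 windows in all. CACCTG stood in 4 of the 10, in DSG2, DSC2, JUP and DSP, against 17.5% of all 35116 windows and 16.1% of the 15086 windows of tested genes. DSC2 and JUP had it in 1 window each, and their other windows, for DSC2 chr18:31101261-31101510, had no match. GGGCGG (the GC box, or CCGCCC) stood in 8 of 10, against 63.3% of the windows of tested genes. TGANTCA, the AP-1 letters, stood in 1 of 10, that of PERP, against 4.54%. These letters are a description of the windows and show no binding.

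Library totals ran between 29387853 and 32809303 counts in shPARP1 and between 24429683 and 26269194 in shCtrl, so that 3 counts equal 0.0914 to 0.123 CPM (counts scaled to library size, here with TMM factors), a floor that covers counting error only. The labels do not say whether libraries came from separate cultures, so the p-values rest on a spread among libraries that may be technical only. PARP1 had 886, 807 and 858 counts in shPARP1 and 6275, 6827 and 6726 in shCtrl, which is 27.3 ± 1.37 CPM in shPARP1 and 261 ± 2.37 CPM in shCtrl (SD, n = 3 each). HK-2 libraries held PAX8, CDH6 and GGT1 at 6473 or more counts each, whereas LRP2, the megalin gene that defines mature proximal tubule, had at most 1 count. The summed CPM of 10 proximal tubule markers was 923 to 944 in shPARP1 and 1342 to 1359 in shCtrl. That of 4 general epithelial markers (KRT8, KRT18, EPCAM, CDH1) was 1040 to 1066 in shPARP1 and 875 to 898 in shCtrl, nearly all of it the keratins KRT8 and KRT18, while EPCAM (log2 fold change -0.13) was not called and CDH1 (-0.86) fell. Of 4 leukocyte markers 3 had a row, with a sum of 2.63 to 3.26 CPM in shPARP1 and 7.53 to 8.98 CPM in shCtrl, nearly all of it CD14, and CD3E had 0 counts in all 3 shPARP1 libraries. Of 4 fibroblast markers 3 had a row, with 7.22 to 8.39 CPM in shPARP1 and 13.3 to 16.0 CPM in shCtrl, nearly all LUM, and PDGFRA at 0 counts in all 3 shPARP1 libraries. Of 4 endothelial markers 3 had a row, with 0.227 to 0.336 CPM in shPARP1 and 0.308 to 0.424 CPM in shCtrl. Of 6 stratified epithelial markers 1, KRT10, had a row, at 49.1 to 52.5 CPM in shPARP1 and 27.0 to 35.0 CPM in shCtrl. Their part in the results below was not tested.

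The desmosomal cadherin genes fell after PARP1 knockdown, DSG2 to 25.4%, DSC2 to 33.5% and DSC3 to 52.4% of their shCtrl levels. Plakoglobin, JUP, fell to 72.3% of its shCtrl level. DSP fell to 76.9%, a call that did not hold in several alternatives, and the plakophilins and PERP did not pass the test. With edgeR's quasi-likelihood test and an adjusted p under 0.05, 5 of the 9 genes were called (DSG2, DSC2, DSC3, JUP and DSP), all 5 lower in shPARP1 and 0 higher. Across all tested genes 55.7% were called, 28.5% lower and 27.3% higher, so the share of desmosome genes called was near that of all genes. For 8 of 9 genes the libraries of one group all lay above those of the other, as they did for 60.1% of all genes, and PKP4 was the exception. A fall of at least 2-fold was called for 2 genes, DSG2 and DSC2, against 4.07% of all genes. The median log2 fold change was -0.39 over the 9 genes and -0.01 over all genes. In these bulk samples, fewer cells expressing a gene and less RNA per cell cannot be told apart.

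**Figure D1:**
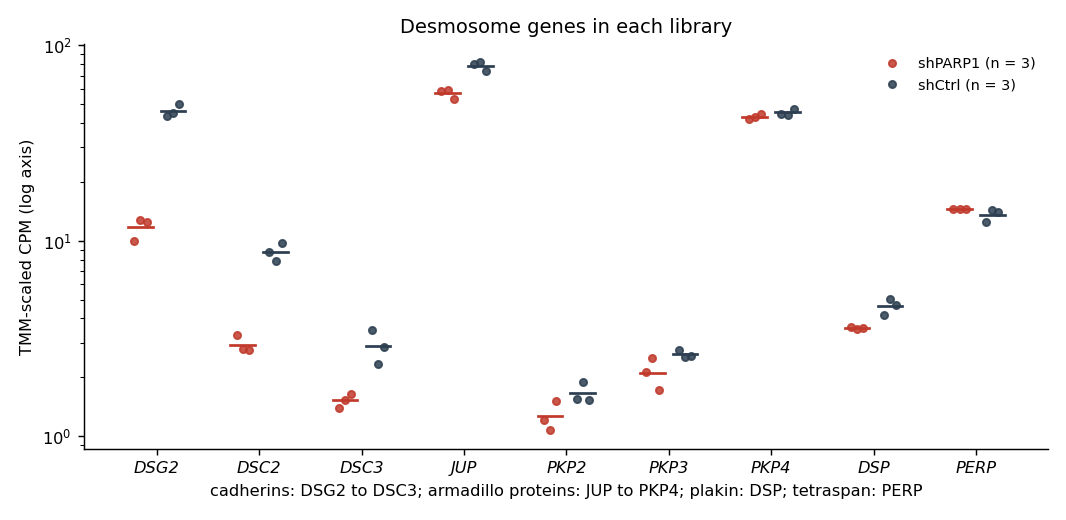
TMM-scaled CPM (log axis) of the 9 desmosome genes, with 1 point per library, shPARP1 to the left of shCtrl for each gene, and a line at the mean of 3 libraries. The points of DSG2 stand farthest apart, at 9.99 to 12.8 CPM in shPARP1 and 43.4 to 50.3 CPM in shCtrl, and only the ranges of PKP4 overlap.

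DSG2, the desmoglein of simple epithelia, had 329, 394 and 370 counts in the shPARP1 libraries and 1038, 1165 and 1308 in the shCtrl libraries. In CPM these were 9.99, 12.8 and 12.4 in shPARP1 and 43.4, 44.9 and 50.3 in shCtrl. Every shPARP1 library lay far below every shCtrl library. DSG2 averaged 11.7 ± 1.52 CPM in shPARP1 and 46.2 ± 3.64 CPM in shCtrl (SD, n = 3 each), so that 25.4% of the shCtrl level was left. The log2 fold change was -1.98 (SE 0.08, 95% interval -2.14 to -1.82, edgeR quasi-likelihood adjusted p = 7.3e-28).

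DSC2, the desmocollin that partners DSG2 in simple epithelia, had 108, 86 and 82 counts in shPARP1 and 209, 205 and 252 in shCtrl. Its CPM values were 3.28, 2.79 and 2.75 in shPARP1 and 8.73, 7.90 and 9.69 in shCtrl. The groups did not overlap, with a wide gap between the highest shPARP1 and the lowest shCtrl library. The mean was 2.94 ± 0.294 CPM in shPARP1 and 8.77 ± 0.895 CPM in shCtrl (SD, n = 3 each), 33.5% of the shCtrl level. The log2 fold change was -1.57 (SE 0.14, 95% interval -1.85 to -1.29, edgeR quasi-likelihood adjusted p = 7e-15).

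DSC3, the desmocollin of stratified epithelia, had fewer reads, with 46, 47 and 49 counts in shPARP1 and 84, 61 and 74 in shCtrl. Its CPM values were 1.40, 1.52 and 1.65 in shPARP1 and 3.51, 2.35 and 2.84 in shCtrl. The shPARP1 libraries lay close together and the shCtrl libraries were spread more widely, without overlap. DSC3 kept 52.4% of the shCtrl level, a log2 fold change of -0.93 (SE 0.21, 95% interval -1.35 to -0.50, edgeR quasi-likelihood adjusted p = 0.000168). On the opposite strand, DSG2-AS1 overlaps 6863 bases of DSG2 and DSCAS overlaps 935 bases of DSC2. Neither antisense gene was analysed here, and without a stated strand setting for the counting, their reads cannot be told apart from those of the cadherins.

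JUP, or plakoglobin, binds the tails of desmosomal and classical cadherins alike. Its gene (ENSG00000173801.16) is on chromosome 17, minus strand, between 41754604 and 41786931. JUP had 58.3, 58.9 and 53.2 CPM in shPARP1 and 79.9, 81.7 and 74.0 CPM in shCtrl. The groups did not overlap. The mean was 56.8 ± 3.13 CPM in shPARP1 and 78.5 ± 4.03 CPM in shCtrl (SD, n = 3 each), a log2 fold change of -0.47 (SE 0.05, 95% interval -0.57 to -0.37, edgeR quasi-likelihood adjusted p = 3.5e-12).

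The plakophilins, armadillo proteins that gather desmosomal components at the plaque, did not pass the test. PKP4 (chromosome 2, 158456964 to 158682879, plus strand), which is also found at adherens junctions, had 41.9, 43.0 and 44.3 CPM in shPARP1 and 44.6, 44.0 and 47.4 CPM in shCtrl. Its ranges overlapped slightly. The log2 fold change of PKP4 was -0.07 (SE 0.06, 95% interval -0.19 to 0.04, edgeR quasi-likelihood adjusted p = 0.266), and it turned to 0.07 when exon length and GC content were corrected for. PKP4-AS1 overlaps 24543 bases of PKP4 on the opposite strand and was not analysed here. PKP2 (chromosome 12, 32790745 to 32896840, minus strand), the plakophilin of heart and simple epithelia, had 40, 33 and 45 counts in shPARP1 and 37, 49 and 40 in shCtrl. After scaling to library size PKP2 came to 1.21, 1.07 and 1.51 CPM in shPARP1 and 1.55, 1.89 and 1.54 CPM in shCtrl. The highest shPARP1 library came just under the lowest shCtrl library, and the log2 fold change was -0.39 (SE 0.25, 95% interval -0.90 to 0.12, edgeR quasi-likelihood adjusted p = 0.192). PKP3 (chromosome 11, 392614 to 404908, plus strand), which binds a broad range of desmosomal proteins, had 2.12, 2.50 and 1.71 CPM in shPARP1 and 2.76, 2.54 and 2.58 CPM in shCtrl. Its log2 fold change was -0.31 (SE 0.20, 95% interval -0.72 to 0.09, edgeR quasi-likelihood adjusted p = 0.192). These intervals reach down to -0.90 for PKP2 and -0.72 for PKP3, so that falls of that size lie within the error at this depth.

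DSP, the plakin that anchors keratin filaments, lies on the plus strand of chromosome 6 from 7541575 to 7586717. It had 119, 109 and 106 counts in shPARP1 and 100, 131 and 122 in shCtrl, which came to 3.61, 3.53 and 3.56 CPM in shPARP1 and 4.18, 5.05 and 4.69 CPM in shCtrl. The shPARP1 libraries were nearly equal and all lay below the shCtrl libraries. The log2 fold change was -0.38 (SE 0.15, 95% interval -0.69 to -0.07, edgeR quasi-likelihood adjusted p = 0.0303). The call was lost in 11 of 20 alternatives, among them DESeq2 (adjusted p = 0.0657) and the fit without shCtrl replicate 2 (edgeR quasi-likelihood adjusted p = 0.132).

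PERP, a tetraspan membrane protein induced by p53 that mouse skin needs for firm desmosomes, is on chromosome 6, minus strand, between 138088505 and 138107511. It had 14.5 CPM in each of the 3 shPARP1 libraries and 12.5, 14.3 and 14.0 CPM in shCtrl. The shPARP1 libraries lay just above the highest shCtrl library, and the log2 fold change was 0.09 (SE 0.09, 95% interval -0.09 to 0.26, edgeR quasi-likelihood adjusted p = 0.410).

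**Figure D2:**
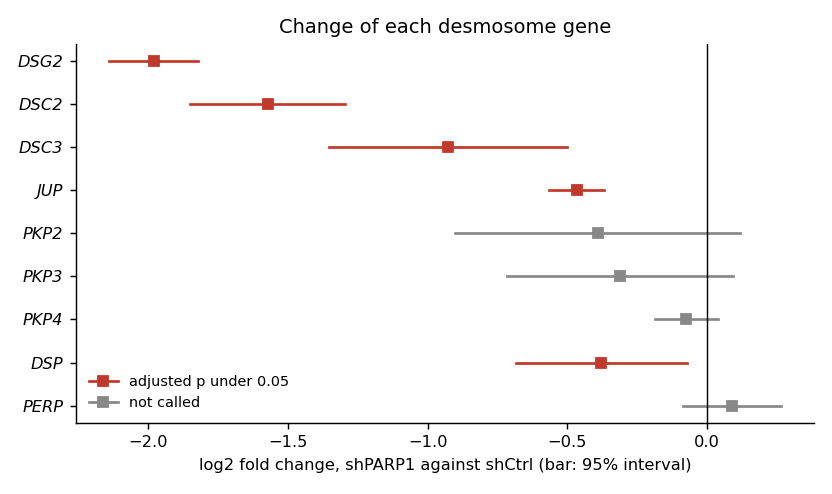
Log2 fold change of each desmosome gene, shPARP1 against shCtrl, with 95% intervals from the fit over all genes, red where the adjusted p is under 0.05. The intervals of the cadherins DSG2, DSC2 and DSC3 lie between -2.14 and -0.50, that of JUP between -0.57 and -0.37, and those of PKP2, PKP3, PKP4 and PERP include 0.

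Levels of different genes were compared in FPKM, which account for gene length as well as library size. The gene lengths behind the deposited FPKM are not given in the sources used. The order of genes, and the sums and shares below, depend on them. In shPARP1 the order of mean levels was JUP (13.7 ± 0.738 FPKM, SD, n = 3 here and in what follows), PKP4 (6.49 ± 0.20), PERP (3.02 in every library), DSG2 (1.70 ± 0.224), PKP3 (0.673 ± 0.125), DSP (0.327 ± 0.00577), PKP2 (0.257 ± 0.0473), DSC2 (0.213 ± 0.0231) and DSC3 (0.193 ± 0.0153). Across libraries PKP2 overlapped DSC2 and DSC2 overlapped DSC3, so these neighbours could not be ranked. PKP2 (0.22 to 0.31 FPKM) lay above DSC3 (0.18 to 0.21 FPKM) in shPARP1. In CPM, PKP2 (1.21, 1.07 and 1.51) lay below DSC3 (1.40, 1.52 and 1.65) in each shPARP1 library. Their GENCODE exon lengths are nearly equal (7043 bases for PKP2, 7056 for DSC3), so their FPKM order rests on the lengths behind the deposited FPKM. In shCtrl it was JUP (18.4 ± 1.07 FPKM), PKP4 (6.62 ± 0.251), DSG2 (6.48 ± 0.521), PERP (2.76 ± 0.219), PKP3 (0.810 ± 0.0265), DSC2 (0.617 ± 0.0603), DSP (0.410 ± 0.040), DSC3 (0.357 ± 0.0702) and PKP2 (0.323 ± 0.0404). There PKP4 and DSG2 overlapped, and so did DSP with DSC3 and DSC3 with PKP2. DSG2 ranked below PERP in shPARP1, at 1.44, 1.85 and 1.80 FPKM, and overlapped PKP4 in shCtrl, at 6.01, 6.39 and 7.04 FPKM.

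Summed over DSG2, DSC2 and DSC3, the cadherins came to 1.86, 2.24 and 2.21 FPKM in shPARP1 and 7.05, 7.24 and 8.07 FPKM in shCtrl. The means were 2.10 ± 0.211 FPKM in shPARP1 and 7.45 ± 0.542 FPKM in shCtrl (SD, n = 3 each), a ratio of 0.282. The armadillo sum (JUP and the plakophilins) was 21.1 ± 0.670 FPKM in shPARP1 and 26.2 ± 0.914 FPKM in shCtrl, a ratio of 0.808, and most of that difference was JUP. The plakophilins alone summed to 7.42 ± 0.192 FPKM in shPARP1 and 7.76 ± 0.218 FPKM in shCtrl. The balance between the classes differed too. For every 100 FPKM of armadillo transcripts there were 8.76, 10.3 and 10.8 FPKM of cadherins in shPARP1 and 27.1, 26.7 and 31.9 FPKM in shCtrl, a ratio of means of 0.349. DSG2 per 100 FPKM of JUP was 12.4 ± 1.93 in shPARP1 and 35.4 ± 4.63 in shCtrl (SD, n = 3 each). In none of these sums and ratios did the groups overlap, and each gave p = 0.1 in the two-sided exact permutation test, the smallest that 3 libraries against 3 allow, so that none could reach 0.05.

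DSG2 was the main cadherin transcript in both groups, with a smaller share in shPARP1. It made up 77.4%, 82.6% and 81.4% of the cadherin FPKM in shPARP1 and 85.2%, 88.3% and 87.2% in shCtrl. The share of DSC3 was 9.22% ± 0.645 in shPARP1 and 4.81% ± 1.13 in shCtrl, and that of DSC2 was 10.3% ± 2.26 in shPARP1 and 8.27% ± 0.478 in shCtrl (SD, n = 3 each). Groups did not overlap for any of these 3 shares (two-sided exact permutation p = 0.1, the smallest possible). Among the armadillo genes, JUP held 64.9% ± 1.62 of the summed FPKM in shPARP1 and 70.3% ± 1.72 in shCtrl, and PKP4 held 30.7% ± 1.75 in shPARP1 and 25.4% ± 1.73 in shCtrl, again without overlap (two-sided exact permutation p = 0.1). The shares of PKP2 (p = 0.9) and PKP3 (p = 0.8) overlapped in the same exact permutation test. The values of DSC2 and DSC3 carry the rounding of FPKM to 2 decimals.

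**Figure D3:**
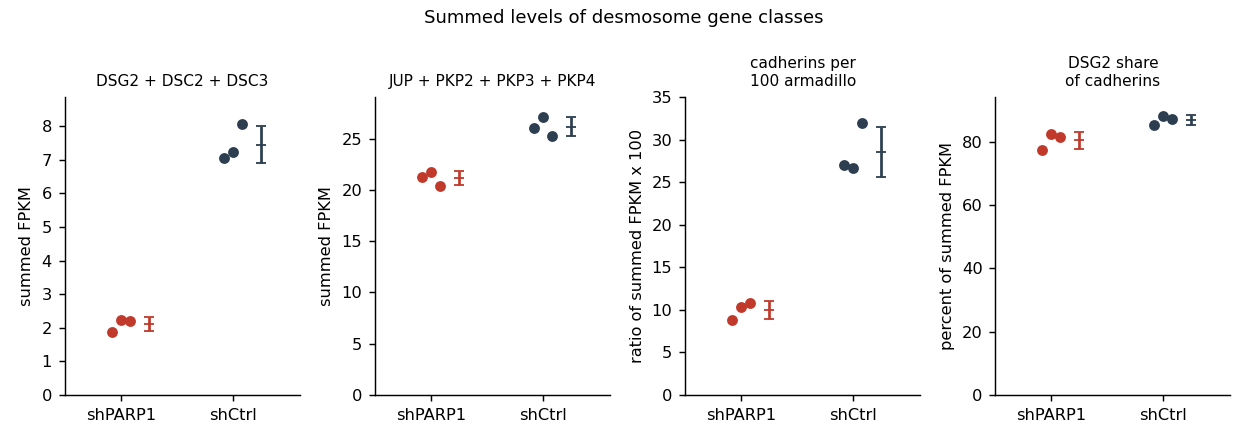
Summed FPKM of the desmosomal cadherins and of the armadillo genes, cadherins per 100 FPKM of armadillo transcripts, and the DSG2 share of the cadherin sum in percent, with 1 point per library and bars for the mean and SD of 3 libraries. The cadherin sum averaged 2.10 FPKM in shPARP1 and 7.45 FPKM in shCtrl, and the armadillo sum 21.1 FPKM in shPARP1 and 26.2 FPKM in shCtrl.

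Genes around the cadherin interval moved both ways. Of 7 other genes tested within 1 Mb of it, 1 rose, 1 fell and 5 missed the threshold, with a median log2 fold change of 0.18. The rise was GAREM (0.53, SE 0.20) and the fall TRAPPC8 (-0.54, SE 0.22), both named after their values were seen. All 7 were low, at 3.09 CPM or less in every library, with SEs of 0.20 to 0.47. Smaller changes could have been missed at this depth. DSG3, the desmoglein gene just upstream of DSG2 that is best known from stratified epithelia, had 34, 15 and 32 counts in shPARP1 and 17, 15 and 19 in shCtrl. Its log2 fold change was 0.36 (SE 0.36, 95% interval -0.35 to 1.08, edgeR quasi-likelihood adjusted p = 0.409), an interval that spans both directions at this depth. DSC1 had 0 to 2 counts per library. On chromosome 18 without DSG2, DSC2 and DSC3, 51 of 228 tested genes rose and 59 (25.9%) fell, 9 of them at least 2-fold. The median was 0.01, and the neighbours described above are among the 228. Over all tested genes 27.3% were higher, 28.5% lower and 4.07% at least 2-fold lower.

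**Figure D4:**
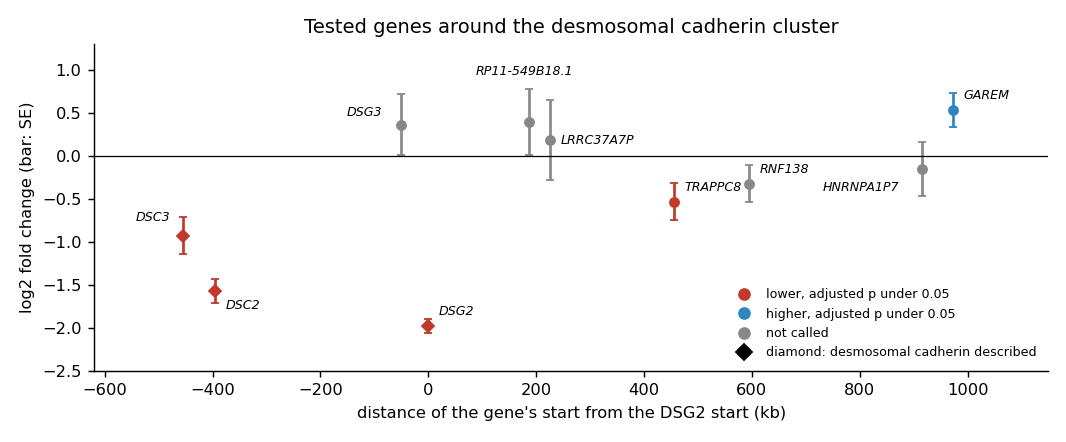
Log2 fold change (shPARP1 against shCtrl, bars are SE) of the tested genes within 1 Mb of the desmosomal cadherin interval, by the distance in kb of each gene's start from that of DSG2. DSC3, DSC2 and DSG2 (diamonds) lie at -0.93, -1.57 and -1.98, and the 7 other genes lie between -0.54 and 0.53.

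Related gene lists were read in the same fit, by counts and medians without a test over a list, and genes that rose or fell are those with an edgeR adjusted p under 0.05. Of 9 other desmosomal and plakin genes 6 had a row and 3 were tested. PPL, the periplakin gene, fell to 1.94 ± 0.248 CPM in shPARP1, against 5.40 ± 0.820 CPM in shCtrl (log2 fold change -1.48, SE 0.17). EVPL, the gene for its partner envoplakin, had a log2 fold change of 0.07 (SE 0.05, 95% interval -0.04 to 0.18) and was called higher only with the length and GC correction. PKP1 had 0 to 4 counts per library. DSG3, DSC1, EVPL and PKP1 were named after their values were seen, and DSG1, DSG4 and CDSN were not analysed here.

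Among 10 tested genes of intermediate filaments and their linkers, 5 rose and 3 fell, against 27.3% higher and 28.5% lower of all tested genes, with a median log2 fold change of 0.08. KRT18, a keratin of simple epithelia, rose to 361 ± 2.74 CPM in shPARP1, against 240 ± 1.25 CPM in shCtrl (0.59, SE 0.03), and the linker gene PLEC rose by 0.37 (SE 0.04). KRT7, another simple keratin, fell by 0.64 on the log2 scale (SE 0.07). The linker DST fell by 0.19 (SE 0.05), but its sign turned with the length and GC correction. Limma-trend on FPKM called 1 fall in this list. Of 9 tested hemidesmosome genes, which attach cells to the basement membrane, 5 fell and 2 rose, against 28.5% lower and 27.3% higher of all tested genes, PLEC and DST being in both lists. The laminin receptor subunit ITGB4 fell by 0.92 (SE 0.05), LAMA3 fell by 0.79 (SE 0.05) and CD151 fell by 0.46 (SE 0.04), all on the log2 scale. The count of rises there was 1 without shPARP1 replicate 1 or 3 or without shCtrl replicate 2 or 3, when COL17A1 (0.80, SE 0.29), named after its values were seen, lost its call.

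The core genes of adherens junctions, the actin-linked junctions that share JUP with desmosomes, were lower for 9 of 10 tested and higher for 0, against 28.5% lower and 27.3% higher of all tested genes, with a median log2 fold change of -0.80. CDH6, a kidney cadherin, had 215 ± 5.18 CPM in shPARP1 and 446 ± 9.59 CPM in shCtrl (-1.05, SE 0.03). Vinculin, VCL, had 333 ± 5.97 CPM in shPARP1 and 671 ± 22.6 CPM in shCtrl (-1.01, SE 0.03). CDH2, or N-cadherin, fell by 0.75 (SE 0.05) and beta-catenin, CTNNB1, fell by 0.53 (SE 0.04). CDH1, the E-cadherin gene, named after its values were seen, had 1.83 ± 0.279 CPM in shPARP1 and 3.35 ± 0.440 CPM in shCtrl (-0.86, SE 0.20).

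Regulators of desmosome assembly and turnover fell for 10 of 17 tested genes and rose for 2, against 28.5% lower and 27.3% higher of all tested genes, with a median of -0.40. EGFR, whose kinase activity is known to loosen desmosomes, fell by 1.05 on the log2 scale (SE 0.05). ADAM17, a protease that sheds DSG2, fell by 0.60 (SE 0.05). ZDHHC7, a palmitoyltransferase, fell by 0.58 (SE 0.04) and the lipid raft gene FLOT1 fell by 0.42 (SE 0.04). With the length and GC correction 4 of the 17 rose.

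Of 15 tested transcription factors known for junction genes, 4 fell, 1 rose and 10 missed the threshold, with a median of 0.01. Over all tested genes 28.5% were lower and 55.7% were called in either direction, so the share of falls here was near the background. SNAI1, a repressor that binds CACCTG, had 30.0 ± 1.59 CPM in shPARP1 and 39.8 ± 1.76 CPM in shCtrl (-0.41, SE 0.06). SNAI2, a close relative, had 4.39 ± 0.767 CPM in shPARP1 and 7.11 ± 0.726 CPM in shCtrl (-0.70, SE 0.14). ZEB2, named after its values were seen, fell by 0.56 (SE 0.15). TFAP2A, an activator in epidermis, fell by 0.78 (SE 0.13). TCF3, whose product E12/E47 binds the same letters, rose to 110 ± 1.85 CPM in shPARP1, against 61.8 ± 2.04 CPM in shCtrl (0.83, SE 0.04). The count of rises was 2 without shPARP1 replicate 1 and with the likelihood-ratio test, 3 with library totals alone and with the length and GC correction, and 2 or 3 with limma-trend on FPKM.

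**Figure D5:**
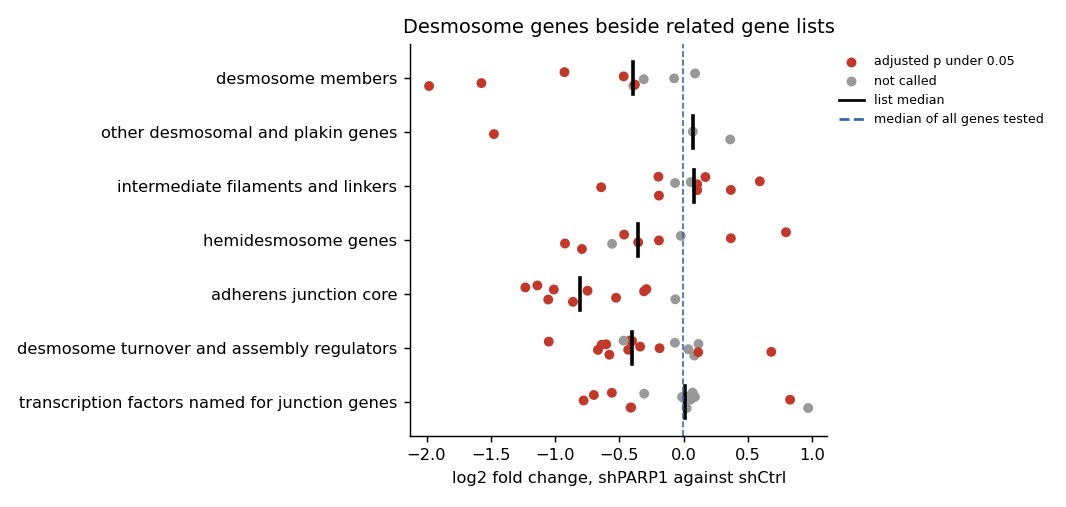
Log2 fold changes (shPARP1 against shCtrl) of the tested genes of each list, red where the adjusted p is under 0.05, with the list median (black) and the median of all tested genes (dashed). The desmosome genes reach from -1.98 to 0.09, and 9 of the 10 adherens junction genes were called lower.

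The genes whose level followed DSG2 most closely across the 6 libraries, among 10066 genes averaging 5 CPM or more, were VCAN, HACD3 and SCML2. VCAN, the proteoglycan versican, had a Pearson r of 0.9998 and a log2 fold change of -0.75. HACD3, an enzyme of very-long-chain fatty acid synthesis, had an r of 0.9996 (-0.62), and SCML2, a Polycomb-group gene, an r of 0.9996 (-1.34). The libraries form 2 groups, and 336 of the 10066 genes had an r above 0.99, so these values describe a difference between groups that many genes share.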

How the data were processed

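Polyadenylated RNA of 3 shPARP1 and 3 shCtrl libraries of HK-2 cells was sequenced in paired-end mode from a stranded kit, per the labels' protocols. The authors deposited whole-number read counts per gene, not normalized, and a matching table of FPKM with 2 decimals. The submitters' processing notes name GRCh38, bcl2fastq, TopHat2 and edgeR. How reads were counted, with which strand setting and annotation, is not given in the sources used, so overlapping genes on opposite strands may share reads.

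Counts were compared in R 4.3.3 with edgeR 4.0.16 (filterByExpr, TMM scaling, robust quasi-likelihood test over 16040 genes, Benjamini-Hochberg adjusted p under 0.05, no minimum fold change). FPKM sums and shares were compared with a two-sided exact permutation test in scipy 1.17.1 (Python 3.11.15). Gene positions, exon lengths and GC content came from GENCODE 29 (97.4% of genes matched), and promoter windows from RefSeq (GRCh38.p14). The gene test was tested on simulated data. Replicate libraries differed by more than sampling noise (chi-square per degree of freedom 2.55 to 4.63) and were kept separate.

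The 9 genes and the comparison lists were chosen with earlier results of these data known. Named were the 9 genes, PARP1, the called genes with the smallest p-values in each list (4 at most), and the 3 genes most correlated with DSG2. Other genes are marked as named after their values were seen. Some genes that this rule took are not reported here. Alternatives were other scaling (RLE, upper quartile, library totals), no filter and a stricter filter (1 CPM), the likelihood-ratio test, DESeq2 1.42.0, limma-voom and, on FPKM, limma-trend after adding 1 or 0.1 before log2 (limma 3.58.1), a replicate block, an offset for length and GC content, thinned counts, a 2-fold minimum and leaving out each library.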

Additional observations from a re-analysis of the deposited data

How the results depend on the processing

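DSG2, DSC2, DSC3 and JUP were called lower in 20 of 20 alternatives beside the 2-fold minimum, and PKP2, PKP3, PKP4 and PERP in 0 of 20. Adding 1 to FPKM before log2, which understates the change of low genes, gave -0.41 for DSC2 and -0.18 for DSC3. With at least 2-fold required, 1039 genes and 2 desmosome genes were called, leaving out DSC3 (-0.93), JUP (-0.47) and DSP (-0.38). PKP4 turned to 0.0720 with the length and GC offset and to 0.0728 with the replicate block added to it. DSP lost its call without a filter (-0.38, edgeR adjusted p = 0.0544), in DESeq2 (-0.37), in limma-trend on FPKM with 1 (-0.0875) or 0.1 (-0.25) added before log2, with the length and GC offset (-0.22) and with the block added to it (-0.21), and without any shPARP1 replicate or shCtrl replicate 2 or 3 (-0.45 to -0.30 over the 6 libraries left out in turn). The adjusted p of DSP ranged from 0.0187 to 0.250, and the cause was not tested. The labels do not say whether replicate numbers pair the libraries, and the values did not settle it. Correlations of same-numbered deviations were 0.036, -0.004 and 0.036, while 4 of 6 libraries were closest to their own number. With the replicate block 9060 genes and 5 desmosome genes were called. Of 294 list counts under the alternatives, 267 stayed within 1.5 times and 27 moved further. Depth limits most the genes with the fewest counts, DSC3, PKP2 and PKP3 with 33 to 84, DSC2 with 82 to 252 and DSP with 100 to 131 per library.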
